A study of Mus musculus with 10 samples.

Results

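The genes of the Wnt pathway examined here are the secreted Wnt ligands, their receptors, and the proteins that limit or relay the signal. They were chosen by symbol, with earlier results of these data known. The rule took all Wnt, Fzd, Sfrp, Dkk, Rspo, Axin and Tcf7 genes. It also took Lgr4, Lgr5, Lgr6, Lef1, Ctnnb1, Lrp5, Lrp6, Znrf3, Rnf43 and Wif1. Of the 34590 genes listed in the count tables, 56 met this rule. RNA-seq libraries of hand-picked mouse cochlear cells were available for 5 cell types, with 2 libraries of each: supporting cells (SCs), converted hair cells (cHCs), outer hair cells (OHCs) at P7 and at P22, and inner hair cells (IHCs).

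The SCs carried Fgfr3iCreER and the Rosa26-CAG-loxP-stop-loxP-tdTomato reporter and were harvested at 27 days (replicate 12) and 26 days (replicate 11). Fgfr3iCreER acts mainly in Deiters' and pillar cells, so these libraries do not stand for every SC of the organ of Corti. The cHCs (replicates 13 and 16, 33 days) carried the same alleles plus the Atoh1-HA transgene and the Chrna9-EGFP (alpha9 AChR-EGFP) reporter. Both groups had received tamoxifen at P12 and P13, and only the cHCs had the transgene for it to switch on. The labels place the OHCs at P7 (replicates 15 and 14, 7 days) in prestin-YFP knock-in mice, whereas in the study's supplement they carry PrestinCreERT2 and a tdTomato reporter, induced with tamoxifen at P2 and P3. OHCs at P22 came from prestin-YFP knock-in mice (replicates 21 and 22, numbered here by the age in their titles), and IHCs from Pvalb-Cre mice with the Ai9 tdTomato reporter (replicates 74 and 75, numbered likewise). These titles read m21, f22, m74 and m75, and the letters are not explained in them. How many animals went into a library is not stated in the labels, so p-values measure the spread between libraries. In a bulk library, fewer cells that use a gene and less RNA of it per cell cannot be told apart.

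Wnt proteins bind Frizzled (Fzd) receptors, alone or together with the co-receptors Lrp5 and Lrp6. In the canonical branch, this stops the Axin scaffold from having beta-catenin (encoded by Ctnnb1) destroyed, and beta-catenin then enters the nucleus and acts with Tcf7, Lef1 and their relatives. Axin2, Rnf43, Znrf3 and Lgr5 are widely used readouts of this branch, and several of them feed back on it. In the neonatal cochlea, Lgr5-positive SCs are known as cells that can divide and give rise to hair cells, and a planar polarity branch that also uses Fzd3 and Fzd6 orients the hair bundles.

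Between 15016129 and 40518766 reads per library fell on genes. Levels are given as counts per 1000000 reads on genes (CPM), scaled with edgeR's TMM factors, and 3 counts correspond to between 0.0762 and 0.264 CPM in a library. This floor covers counting error only. For 4 of the 10 records the attached counts are those of another library by the study's own table, and the library named in that table was used. With the files as attached, 0 of all genes passed the edgeR test in any comparison below. Of the 34 Wnt pathway genes, 15 had an unadjusted p under 0.05 between OHCs (P22) and SCs with these files. The share of all genes at that threshold was not counted, so the 15 genes have no reference. The libraries of SCs, cHCs and OHCs (P7) are numbered from 11 to 16 in their titles, and those of OHCs (P22) and IHCs belong to another run of numbers, so cell type and run cannot be told apart in comparisons across the 2 runs. Within the first run the titles have 2 forms, with 1 library of SCs, cHCs and OHCs (P7) in each: replicates 12, 13 and 15 had 15016129 to 22597688 reads on genes, and replicates 11, 16 and 14 had 33162033 to 40518766. With the title form as a batch term, an alternative chosen after the data were seen, 0 of the 34 tested Wnt pathway genes passed between any pair of these 3 cell types. Hair cell markers (8 genes summed) stood at 361 to 362 CPM in SCs and at 4072 CPM or more in each other library. The OHC markers Slc26a5 and Ocm summed to 4255 CPM or more in all OHC libraries and 241 CPM or less elsewhere, and the IHC marker Slc17a8 to 1763 CPM or more in IHCs and 75.5 CPM or less elsewhere. The SC markers (8 genes) summed to 1010 and 1686 CPM in SCs, 1082 and 893 CPM in cHCs, and 88.9 and 327 CPM in OHCs (P7). They summed to 7.93 and 4.97 CPM in OHCs (P22) and to 819 and 655 CPM in IHCs. In IHCs, Gjb2, a gap junction gene of SCs, made up 611 and 468 CPM of this, while Fgfr3 had 17.3 and 0 CPM. In cHCs the sum was carried by Prox1 (247 and 293 CPM, against 14.7 and 53.7 CPM in SCs) and Fgfr3 (458 and 431 CPM, against 167 and 312 CPM), while Sox9 had 126 and 16.0 CPM there against 402 and 242 CPM, and Hes1, Sox2 and Jag1 also lay below both SC libraries. The part of SC RNA in the IHC values given below was not tested.

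**Figure D1:**
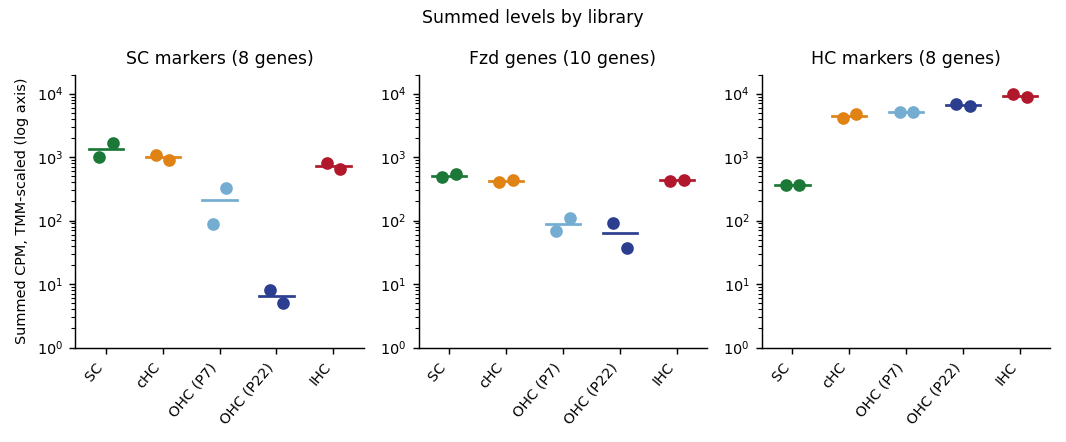
Summed TMM-scaled CPM (log axis) of 8 SC markers, of the 10 Fzd genes and of 8 hair cell (HC) markers. Each point is a library and each line the mean of 2. SC markers reached 7.93 CPM at most in OHCs (P22) and 655 CPM or more in IHCs, SCs and cHCs, and the summed Fzd level was lowest in the 4 OHC libraries (37.1 to 108 CPM).

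Of the 56 genes, 34 passed the filter on low counts and were tested, 5 had no read in any library, and 18 stayed under 1 CPM in every library. Of the 22 genes that were not tested, 4 reached 1 CPM somewhere: Wnt3, Wnt11, Dkk2 and Rspo2, each in a single library. At least 1 CPM in both libraries was found for 24 genes in SCs, 24 in cHCs, 23 in IHCs, 17 in OHCs (P7) and 11 in OHCs (P22). A gene could pass the filter through the cell types in which it was read, and 8 of the 34 tested genes had no read in either library of OHCs (P22). No share over all genes was counted for these numbers. OHC (P22) replicate 21 had reads on 14332 genes, the fewest of any library. Its 10 most read genes took 41.3% of its reads on genes, and its TMM factor was 0.583. In OHCs (P22), 61.8% and 59.6% of reads fell on no gene, against 48.4% or less elsewhere. The part of this in the detection counts was not tested.

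**Figure D2:**
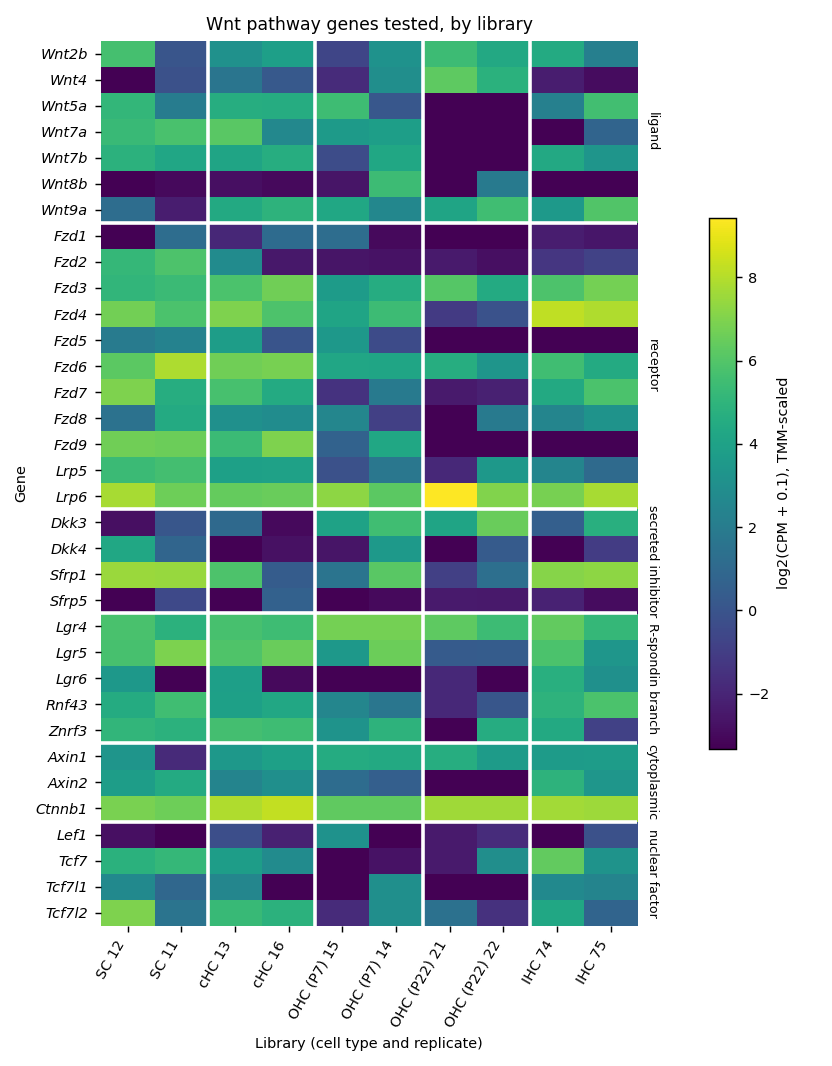
TMM-scaled level of the 34 tested genes, as log2(CPM + 0.1), in the 10 libraries (columns, named by cell type and replicate number); rows are grouped by role. The darkest cells are genes with no read, and they are most frequent in the columns of OHCs (P22), where 8 tested genes had no read in either library.

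The main contrast of the study is the conversion of SCs towards hair cells, with mature OHCs as its reference. Mature OHCs (P22) held less RNA of 11 of the 34 tested genes than SCs did, and more of 0, at an adjusted p under 0.05 (edgeR quasi-likelihood test, adjusted by Benjamini and Hochberg's method over 16891 genes). This was 32.4% of the tested genes, beside 8.02% of all genes tested, of which 676 were lower and 678 higher. The 11 genes were the ligands Wnt5a, Wnt7a and Wnt7b, the receptors Fzd2, Fzd4, Fzd6, Fzd7 and Fzd9, and Axin2, Lgr5 and Rnf43. The median fitted log2 fold change of the 34 genes was -3.63, or -3.59 with the 8 genes without reads in OHCs (P22) set at the bound that 3 counts allow, beside 0.00 for all genes tested. With limma-voom 10 genes passed: 8 of the 11 (not Fzd6, Lgr5 and Wnt5a), Fzd5, and Wnt4 as higher in OHCs (P22). With DESeq2 18 passed, among them all 11, Fzd5 and Wnt4, and the share of all genes called rose as well. Both OHC (P22) libraries lay below both SC libraries for 19 of the 34 genes (25.3% of all genes tested did so). The count rested on both OHC (P22) libraries: without replicate 21 it was 2 (Fzd4 and Fzd9, with 3.91% of all genes called), and without replicate 22 it was 4 (Fzd4, Fzd7, Fzd9 and Rnf43). The SC marker sum moved in the same direction. Of 6 mesenchymal markers tested, 2 passed as lower in OHCs (P22) than in SCs and 0 as higher. These were Lum, at 684 and 716 CPM in SCs, and Dcn, at 18.7 and 96.3 CPM, both at 0 in OHCs (P22). The others did not pass, and Col1a1 had 0.711 and 0 CPM in SCs against 2.91 and 3.28 CPM in OHCs (P22). The part of SC or mesenchymal RNA in these differences was not tested.

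Against cHCs, OHCs (P22) were lower for 6 genes and higher for 0 (17.6% of those tested, beside 3.18% of all genes, 2.02% lower and 1.16% higher): Axin2, Fzd4, Fzd7, Fzd9, Lgr5 and Wnt7b. The median log2 fold change was -2.83, against -0.19 for all genes. Without replicate 21, or without replicate 22, the lower genes that passed were Fzd4 and Fzd9, and without replicate 22 Lrp6 passed as higher in OHCs (P22). Both comparisons use the same 2 OHC (P22) libraries, so their calls are not independent of each other.

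Between cHCs and SCs, 0 of the 34 genes passed the edgeR test, beside 1.84% of all genes, and the median log2 fold change was -0.19 against 0.03. At an unadjusted p under 0.05, 2 genes lay higher in cHCs (Ctnnb1 and Wnt9a) and 1 lower (Dkk4), beside 1857 and 675 of all 16891 genes. With limma-voom, 1 gene passed (Ctnnb1), and with DESeq2, 2 genes (Dkk4 and Wnt9a), without the shares of all genes called by these methods. These genes are named because of their values. The interval of a change is wide here: for Lgr5, for example, the log2 fold change was -0.17 with a standard error of 1.06.

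**Figure D3:**
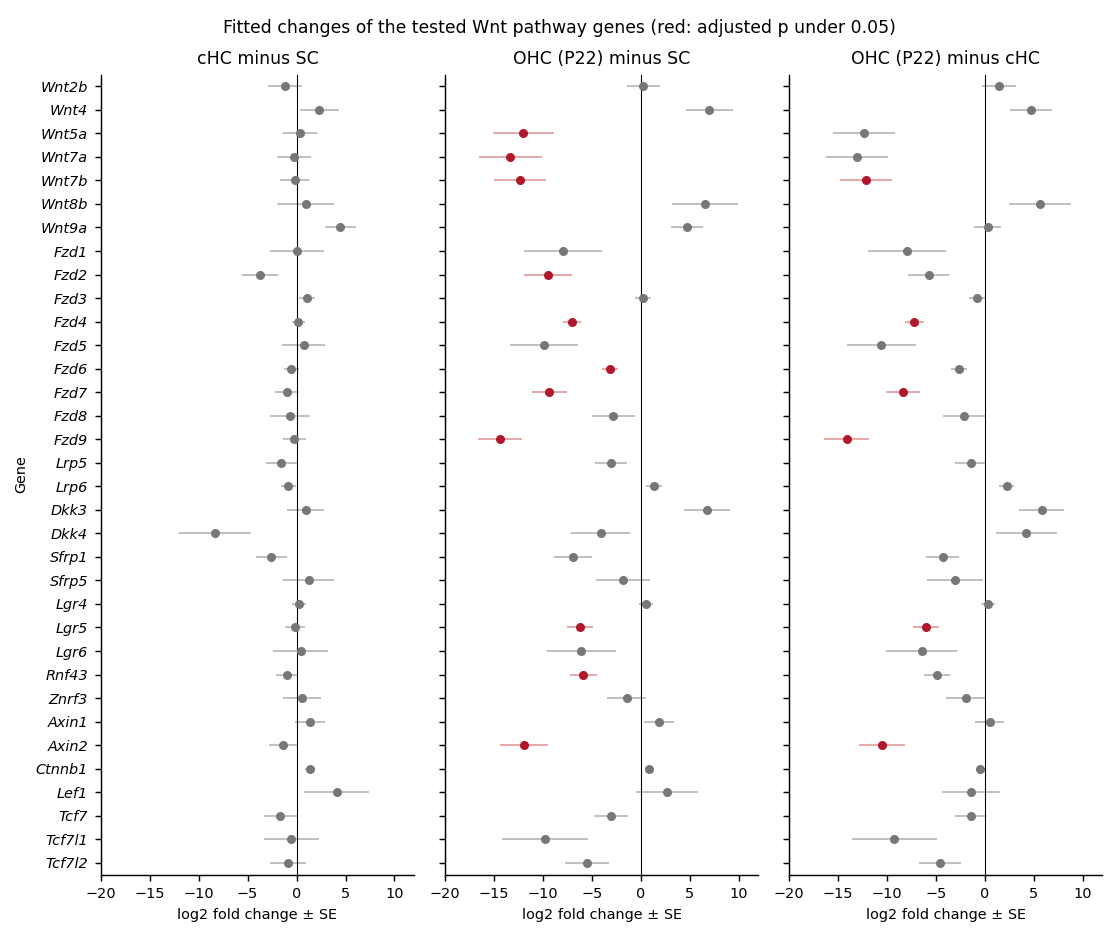
Fitted log2 fold change ± SE (edgeR) of the 34 tested genes in 3 comparisons; red points have an adjusted p under 0.05. In cHCs minus SCs 0 points are red, in OHCs (P22) minus SCs 11 are red and in OHCs (P22) minus cHCs 6, all to the left of 0. Values of genes without reads in OHCs (P22) depend on the prior count.

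Of the 11 receptors tested, 5 passed as lower in OHCs (P22) than in SCs, as did 3 of the 7 ligands tested, beside 8.02% of all genes called. The fitted change was negative for 9 of the 11 receptors and 3 of the 7 ligands. Fzd9 had 103 and 94.4 CPM in SCs, 42.0 and 125 CPM in cHCs and 1.54 and 19.3 CPM in OHCs (P7). No read of Fzd9 was counted in either library of OHCs (P22) or of IHCs. The SC and cHC libraries thus lay above all others. With 3 counts over both libraries as the floor, Fzd9 was at least 1143-fold lower in OHCs (P22) than in SCs (adjusted p = 0.00599), at least 1100-fold lower than in cHCs (adjusted p = 0.0135), and at least 1914-fold lower in IHCs than in SCs (adjusted p = 0.00944). In the mm9 build, Fzd9 lies on chromosome 5 from 135724808 to 135727100 on the minus strand, and its exons overlap no other annotated gene.

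Fzd4, a receptor that also binds the ligand Norrin, differed in more comparisons than any other member tested here, with 4 of 8 pairwise calls. It had 105 and 55.8 CPM in SCs, 124 and 58.8 CPM in cHCs and 17.5 and 42.4 CPM in OHCs (P7). OHCs (P22) held 0.353 and 0.842 CPM, and IHCs 295 and 240 CPM. The OHC (P22) values were the lowest and the IHC values the highest, with no overlap with any other cell type. The log2 fold change of OHCs (P22) was -7.01 ± 0.93 (SE) against SCs (adjusted p = 0.00122), -7.20 ± 0.93 against cHCs (adjusted p = 0.00463) and -5.59 ± 0.87 against OHCs (P7) (adjusted p = 0.0307). IHCs were higher than OHCs (P22) by 8.75 ± 0.99 on the log2 scale (adjusted p = 0.00254). Between OHCs (P22) and OHCs (P7), Fzd4 was the only 1 of the 34 genes that passed (2.94%, beside 0.551% of all genes, 0.420% lower). It did not pass without replicate 21, with limma-voom or with only the compared cell types fitted. Fzd4 lies on chromosome 7 from 96552876 to 96558620 on the plus strand of mm9.

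Fzd7 had 125 and 24.4 CPM in SCs, 53.1 and 22.1 CPM in cHCs, 0.269 and 3.601 CPM in OHCs (P7), 0.0882 and 0.126 CPM in OHCs (P22) and 21.5 and 56.9 CPM in IHCs. The OHC libraries of either age lay below all the others. Its log2 fold change in OHCs (P22) was -9.34 ± 1.80 against SCs (adjusted p = 0.00960) and -8.35 ± 1.74 against cHCs (adjusted p = 0.0266), and in IHCs against OHCs (P22) it was 8.41 ± 1.74 (adjusted p = 0.0405). The first of these was lost without replicate 21, and the others without replicate 21 or 22, the last also without IHC replicate 75 and with the title form as a batch term. With limma-voom, and with only the compared cell types fitted, only the first was made. Fzd2 was read mainly in SCs, with 36.5 and 58.4 CPM there. The cHCs had 7.11 and 0.0762 CPM, IHCs 0.303 and 0.481 CPM, OHCs (P7) 0.0671 and 0.0546 CPM, and OHCs (P22) 0.0882 and 0.0421 CPM. With 2 counts over both OHC (P22) libraries against 3020 in SCs, the ratio was 881 with a 95% counting interval from 244 to 7275 (adjusted p of the edgeR test = 0.0374). The call of Fzd2 was lost without either SC library and without either OHC (P22) library. The cHC libraries differ too widely to be placed, and Fzd2 did not pass between cHCs and SCs (log2 fold change -3.72 ± 1.83, adjusted p = 0.367).

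Fzd6, used with Fzd3 in planar polarity, was read in all libraries: 74.5 and 232 CPM in SCs, 100 and 113 CPM in cHCs, 18.8 and 18.1 CPM in OHCs (P7), 24.3 and 10.1 CPM in OHCs (P22), and 46.2 and 22.1 CPM in IHCs. OHCs (P22) were lower than SCs by -3.15 ± 0.83 on the log2 scale (adjusted p = 0.0418). This call was lost with RLE scaling, with limma-voom, with the title form as a batch term and with only the compared cell types fitted. It was also lost without SC replicate 11 and without either OHC (P22) library. Fzd3 passed in no comparison. It had 33.9 and 41.6 CPM in SCs, 56.9 and 102 CPM in cHCs, 12.6 and 23.8 CPM in OHCs (P7), 66.3 and 22.4 CPM in OHCs (P22), and 58.1 and 108 CPM in IHCs. The joint test over the 5 cell types called 4 of the 34 genes, beside 7.81% of all genes tested. All 4 were Fzd genes (Fzd2, Fzd4, Fzd7 and Fzd9), with Fzd4 at an adjusted p of 0.00272 and Fzd9 at 0.00653. There Fzd2 (adjusted p = 0.0270) was lost without SC replicate 11, and Fzd7 (adjusted p = 0.0282) without either OHC (P22) library, with limma-voom and with the title form as a batch term.

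**Figure D4:**
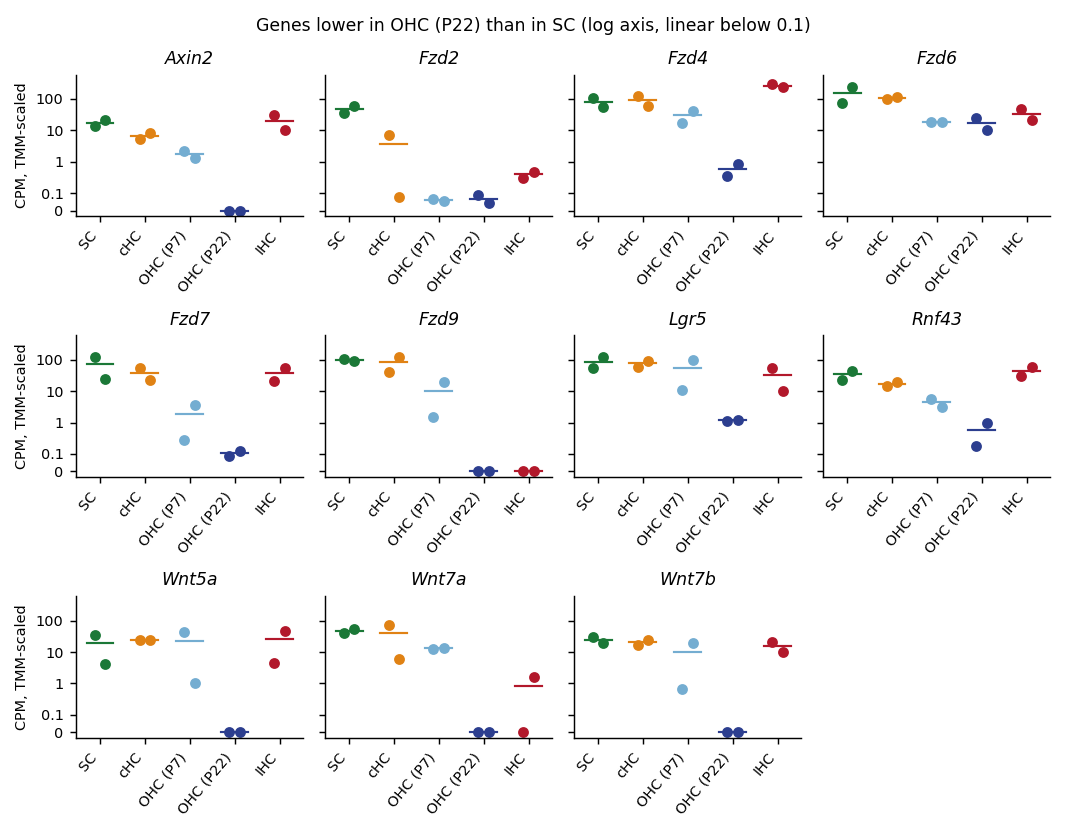
TMM-scaled CPM in each library (points) and mean of 2 libraries (line) of the 11 genes called in the comparison of OHCs (P22) with SCs; the axis is logarithmic and linear below 0.1. In OHCs (P22), Axin2, Fzd9, Wnt5a, Wnt7a and Wnt7b lie at 0, while Lgr5 keeps 1.15 and 1.22 CPM and Fzd6 24.3 and 10.1 CPM.

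Levels of different genes were compared per exon length, as CPM per kb of exon with the SD over 2 libraries. Fzd9 had 43.1 ± 2.69 CPM per kb in SCs, followed by Fzd6 with 37.5 ± 27.3 and Fzd4 with 21.8 ± 9.37, and the same order held in cHCs (36.4 ± 25.6, 26.1 ± 2.20 and 24.7 ± 12.4). The spread of Fzd6 in SCs and of Fzd9 in cHCs covers these differences. IHCs were led by Fzd4 (72.5 ± 10.5 CPM per kb), with Fzd3 next (19.6 ± 8.32). In OHCs (P22) the leading Fzd gene was Fzd3 with 10.5 ± 7.34 CPM per kb, before Fzd6 with 4.22 ± 2.46. As a share of the per-length sum over all Fzd genes, Fzd3 took 72.0% and 58.2% in the OHC (P22) libraries and 5.86% and 6.47% in the SC libraries, while Fzd4 took 71.9% and 58.7% in IHCs. Summed CPM of all Fzd genes was 484 and 536 in SCs, 405 and 431 in cHCs, 69.6 and 108 in OHCs (P7), 91.2 and 37.1 in OHCs (P22), and 426 and 437 in IHCs.

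The other receptors gave no call with edgeR and all 10 libraries. Fzd5 had 3.82 and 4.86 CPM in SCs, 13.6 and 0.889 CPM in cHCs and no read in OHCs (P22) or IHCs, and it passed with both DESeq2 and limma-voom in these 2 cell types against SCs. Fzd1 stayed at 2.23 CPM or less and Fzd10 had 3 reads in all. Fzd8 ranged from 0 (OHC (P22) replicate 21) to 22.3 CPM (SC replicate 11). Of the co-receptors, Lrp6 was present in every library: 221 and 99.1 CPM in SCs, 85.6 and 91.3 CPM in cHCs, 152 and 73.7 CPM in OHCs (P7), 692 and 130 CPM in OHCs (P22) and 114 and 217 CPM in IHCs. The 692 CPM of replicate 21 stood apart from the 130 CPM of replicate 22, and the log2 fold change against SCs was 1.36 ± 0.78 (adjusted p = 0.286). Lrp5 had 41.9 and 50.02 CPM in SCs, 14.9 and 15.8 CPM in cHCs, 0.806 and 3.19 CPM in OHCs (P7), 0.176 and 10.9 CPM in OHCs (P22) and 5.49 and 2.03 CPM in IHCs. Both SC libraries were above all others for Lrp5, but no comparison passed (OHCs (P22) against SCs: -3.04 ± 1.67 on the log2 scale, adjusted p = 0.269).

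Among the 19 ligands, 7 were tested. Wnt7a, which signals through several Fzd receptors, had 39.8 and 55.2 CPM in SCs, 72.7 and 6.20 CPM in cHCs, 12.4 and 13.9 CPM in OHCs (P7), none in OHCs (P22), and 0 and 1.65 CPM in IHCs. It was at least 578-fold lower in OHCs (P22) than in SCs (adjusted p = 0.0313). Its paralog Wnt7b had 29.6 and 18.9 CPM in SCs, 17.3 and 24.8 CPM in cHCs, 0.671 and 19.0 CPM in OHCs (P7), none in OHCs (P22) and 20.6 and 10 CPM in IHCs. The values of SCs and cHCs overlap. Wnt7b was at least 268-fold lower in OHCs (P22) than in SCs (adjusted p = 0.0204) and at least 258-fold lower than in cHCs (adjusted p = 0.0382). All 3 calls were lost without replicate 21 or 22 of OHCs (P22). The last was also lost without cHC replicate 16 and with only the compared cell types fitted.

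Wnt5a, the ligand most tied to the non-canonical branches, had 34.7 and 4.06 CPM in SCs, 24.4 and 23.9 CPM in cHCs, 44.8 and 1.01 CPM in OHCs (P7), none in OHCs (P22) and 4.58 and 47.4 CPM in IHCs. In SCs, OHCs (P7) and IHCs the replicates differed several-fold, and every cell type other than OHCs (P22) overlapped with the others. It was at least 182-fold lower in OHCs (P22) than in SCs (adjusted p = 0.0429). This call was lost with limma-voom, with only the compared cell types fitted, without SC replicate 12 and without either OHC (P22) library. The exons of Wnt5a and Wnt7b each overlap an annotated gene on the opposite strand (Gm2670 and AU022754), and the sources used here do not say whether counting used the strand.

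The ligands with the highest level in OHCs (P22) were others. Wnt4 had 77.9 and 28.4 CPM there, against 0 and 0.797 CPM in SCs, 3.06 and 1.07 CPM in cHCs, 0.201 and 7.83 CPM in OHCs (P7) and 0.101 and 0.0344 CPM in IHCs. Both OHC (P22) libraries lay above all others, but the test was not passed (7.02 ± 2.43 on the log2 scale against SCs, adjusted p = 0.102), though it was with limma-voom and DESeq2. Wnt9a had 2.22 and 0.106 CPM in SCs and between 5.92 and 62.0 CPM in the 8 hair cell and cHC libraries. All 8 were above both SC libraries, at log2 fold changes of 4.48 ± 1.61 in cHCs (adjusted p = 0.239) and 4.76 ± 1.63 in OHCs (P22) (adjusted p = 0.0991). Per kb of exon, the order in OHCs (P22) was Wnt4 (12.7 ± 8.35 CPM), Wnt9a (9.40 ± 5.95) and Wnt2b (8.74 ± 4.29), within their spread of each other, whereas Wnt7a led in SCs (14.98 ± 3.45). Wnt2b ranged from 0.537 to 51.7 CPM with wide differences within cell types, and Wnt8b had 42.2 CPM in OHC (P7) replicate 14 but at most 3.66 CPM in any other library.

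Wnt2, Wnt6, Wnt10a, Wnt10b and Wnt16 had no read in any library, which allows up to the 3-count floor given above. Wnt1, Wnt3a, Wnt5b, Wnt8a and Wnt9b had between 1 and 9 reads over all 10 libraries. Wnt3 reached 6.43 CPM in cHC replicate 16 alone and Wnt11 1.40 CPM in cHC replicate 13 alone.

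Of the 9 secreted inhibitors, which bind Wnt proteins (Sfrp, Wif1) or Lrp5 and Lrp6 (Dkk), 4 were tested and 0 passed with edgeR in any of the 8 pairwise comparisons. Sfrp1 had 181 and 174 CPM in SCs, 57.9 and 1.22 CPM in cHCs, 2.95 and 72.7 CPM in OHCs (P7), 0.441 and 2.44 CPM in OHCs (P22) and 138 and 156 CPM in IHCs. SC and IHC libraries were the highest, and the log2 fold change of OHCs (P22) against SCs was -6.91 ± 1.92 with an adjusted p of 0.0511, just short of the threshold. Dkk3, a divergent member of its family, ran the other way: 0.0444 and 0.956 CPM in SCs, 1.96 and 0.0254 CPM in cHCs, 16.0 and 45.5 CPM in OHCs (P7), 17.3 and 92.7 CPM in OHCs (P22), and 1.35 and 26.6 CPM in IHCs. All 4 OHC libraries lay above the SC and cHC libraries, with a log2 fold change of 6.74 ± 2.37 in OHCs (P22) against SCs (adjusted p = 0.106). With DESeq2, which made 18 calls in this comparison against 11 with edgeR, Sfrp1 passed as lower and Dkk3 as higher. Dkk4 was above 1 CPM in SCs (19.1 and 1.67 CPM), in OHC (P7) replicate 14 (11.6 CPM) and in OHC (P22) replicate 22 (1.18 CPM), and Sfrp5 stayed at 1.47 CPM or less.

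Dkk1, Sfrp2, Sfrp4 and Wif1 stayed at 0.403 CPM or less in every library, with a single read of Wif1 in all. Dkk2 was read in OHC (P7) replicate 15 at 13.02 CPM and with 1 read elsewhere. The same library held the mesenchymal genes Col1a2 and Col3a1 at 223 and 119 CPM, against at most 5.67 and 0.444 CPM in any other library. The other mesenchymal markers did not set it apart. Emilin2 had 1.07 CPM there and 21.7 CPM in OHC (P7) replicate 14, and Lum 21.6 and 50.2 CPM. Col1a1 (11.5 CPM) and Dcn (28.3 CPM) were higher in IHC replicate 75 (43.8 and 38.1 CPM). Postn stayed at 0.0671 CPM or less in every library. The 7 mesenchymal markers summed to 405 CPM in replicate 15 and 74.9 CPM in replicate 14, 705 to 831 CPM in SCs, 17.8 to 196 CPM in cHCs, 11.0 to 20.8 CPM in OHCs (P22) with 4 of 7 at 0, and 39.2 to 131 CPM in IHCs. Most of the sum in SCs was Lum, at 684 and 716 CPM. The part of such RNA in these values was not tested.

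R-spondins act through Lgr4, Lgr5 and Lgr6 to remove the ubiquitin ligases Znrf3 and Rnf43, which otherwise clear Fzd receptors from the cell surface. Of these 9 genes, 5 were tested, and 2 of them, Lgr5 and Rnf43, passed as lower in OHCs (P22) than in SCs. This stands beside 8.02% of all genes called, and the fitted change was negative for 4 of the 5. Lgr5 had 53.1 and 120 CPM in SCs, 60.4 and 92.9 CPM in cHCs, 10.9 and 96.5 CPM in OHCs (P7), 1.15 and 1.22 CPM in OHCs (P22) and 55.9 and 10.3 CPM in IHCs. The cHC values lie within the range of the SC values, and OHCs (P22) are below every other library. The log2 fold change of OHCs (P22) was -6.18 ± 1.34 against SCs (adjusted p = 0.0175) and -6.01 ± 1.33 against cHCs (adjusted p = 0.0342). Both calls were lost with limma-voom and without either OHC (P22) library, and the second without cHC replicate 16. In OHCs (P7), the library with more Lgr5 (replicate 14) was also the one with the higher SC marker sum, 327 against 88.9 CPM, and whether SC RNA has a part in it was not tested.

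Rnf43 had 23.0 and 45.3 CPM in SCs, 14.98 and 19.7 CPM in cHCs, 5.77 and 3.16 CPM in OHCs (P7), 0.176 and 0.969 CPM in OHCs (P22), and 30.7 and 57.1 CPM in IHCs. The order from low to high was OHCs (P22), OHCs (P7), cHCs, SCs, without overlap between neighbours, with IHCs in the range of SCs and above. OHCs (P22) differed from SCs by -5.85 ± 1.37 on the log2 scale (adjusted p = 0.0253) and from cHCs by -4.87 ± 1.31 (adjusted p = 0.0740), which did not pass. Without OHC (P22) replicate 21 or SC replicate 11, the call against SCs was lost. It was also lost with only the compared cell types fitted. Znrf3 had 34.1 and 29.5 CPM in SCs, 49.3 and 43.7 CPM in cHCs, 9.33 and 30.1 CPM in OHCs (P7), 0 and 23.6 CPM in OHCs (P22), and 21.5 and 0.447 CPM in IHCs, and it passed no comparison.

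Lgr4 was read everywhere: 55.5 and 29.0 CPM in SCs, 52.4 and 45.0 CPM in cHCs, 108 and 110 CPM in OHCs (P7), 77.9 and 42.4 CPM in OHCs (P22) and 81.3 and 35.8 CPM in IHCs. The difference of OHCs (P22) from SCs was 0.51 ± 0.71 on the log2 scale (adjusted p = 0.680). Per kb of exon, Lgr5 (8.42 ± 4.59 CPM) and Lgr4 (7.18 ± 3.18) were alike within their spread in SCs, whereas in OHCs (P22) Lgr4 had 10.2 ± 4.26 and Lgr5 0.115 ± 0.00518. Lgr6 was split within cell types, with 11.1 and 0 CPM in SCs, 14.7 and 0.0254 CPM in cHCs, none in OHCs (P7), 0.176 and 0 CPM in OHCs (P22), and 26.5 and 8.49 CPM in IHCs. The ligands themselves were all but absent: Rspo1, Rspo3 and Rspo4 had 3 to 8 reads in all, and Rspo2 reached 3.02 CPM in IHC replicate 75 alone.

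In the cytoplasm, Axin2 and Ctnnb1 differed in their pattern. Axin2, a negative regulator that is itself switched on by the canonical signal, had 13.4 and 22.1 CPM in SCs, 5.28 and 7.98 CPM in cHCs, 2.15 and 1.34 CPM in OHCs (P7), none in OHCs (P22) and 30.4 and 10.2 CPM in IHCs. SCs, cHCs, OHCs (P7) and OHCs (P22) follow each other downwards without overlap, and IHCs span the SC values. OHCs (P22) were at least 220-fold lower than SCs (adjusted p = 0.0154) and at least 81.5-fold lower than cHCs (adjusted p = 0.0425). IHCs were at least 239-fold higher than OHCs (P22) (adjusted p = 0.0418). Each of these 3 calls was lost without either OHC (P22) library, the second without either cHC library and the third without either IHC library. All 3 were also lost with only the compared cell types fitted. The calls against cHCs and between IHCs and OHCs (P22) were lost with the title form as a batch term as well. The step from SCs to cHCs did not pass (-1.42 ± 1.42 on the log2 scale, adjusted p = 0.702). Axin2 lies on chromosome 11 from 108781663 to 108812097 on the plus strand of mm9, where its exons overlap Gm11670 on the other strand.

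Ctnnb1 had 116 and 98.6 CPM in SCs, 243 and 311 CPM in cHCs, 80.5 and 79.9 CPM in OHCs (P7), 198 and 193 CPM in OHCs (P22) and 203 and 192 CPM in IHCs. Replicates lay close together, and the cHC libraries were above all others. The log2 fold change in cHCs against SCs was 1.37 ± 0.47 with an adjusted p of 0.214 in edgeR. As beta-catenin is regulated mainly as a protein, its RNA level does not show its activity. Axin1 lay between 9.99 and 24.6 CPM in every library except SC replicate 11 (0.186 CPM).

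The nuclear factors gave no call with edgeR in any of the 8 comparisons. Tcf7 had 28.5 and 35.8 CPM in SCs, 13.5 and 7.01 CPM in cHCs, 0 and 0.0546 CPM in OHCs (P7), 0.0882 and 7.75 CPM in OHCs (P22), and 82.9 and 9.35 CPM in IHCs. In OHCs (P7) it was below SCs with a log2 fold change of -9.70 ± 2.42 (adjusted p = 0.0549), and with limma-voom or DESeq2 this comparison passed. Tcf7l2 had 123 and 2.92 CPM in SCs, 38.3 and 29.6 CPM in cHCs, 0.201 and 7.86 CPM in OHCs (P7), 2.64 and 0.253 CPM in OHCs (P22) and 19.5 and 1.62 CPM in IHCs, with a spread in SCs that spans the cHC values. Tcf7l1 reached 8.16 CPM at most and had no read in OHCs (P22). Lef1 stayed at 0.790 CPM or less, except for 8.996 CPM in OHC (P7) replicate 15, the library with the most Col1a2 and Col3a1.

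Promoter sequences were read for genes whose levels fell together in OHCs (P22), from RefSeq on the GRCm38.p6 build, with 250 bases before and 50 after the start. A promoter was given for 37 of the 56 genes. The 3 shown are from the 6 genes called against both SCs and cHCs: Axin2, the feedback gene, Fzd4, the receptor with the most calls, and Fzd9, which had no read in OHCs (P22). Capitals mark CG pairs.
Axin2, chr11:108920099-108920398, plus strand: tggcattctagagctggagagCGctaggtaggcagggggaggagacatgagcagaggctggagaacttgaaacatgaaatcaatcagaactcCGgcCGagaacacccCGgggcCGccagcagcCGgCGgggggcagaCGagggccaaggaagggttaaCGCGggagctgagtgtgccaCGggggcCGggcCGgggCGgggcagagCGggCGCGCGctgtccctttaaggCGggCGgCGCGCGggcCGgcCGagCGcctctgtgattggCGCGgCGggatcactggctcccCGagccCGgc
Fzd4, chr7:89404116-89404415, plus strand: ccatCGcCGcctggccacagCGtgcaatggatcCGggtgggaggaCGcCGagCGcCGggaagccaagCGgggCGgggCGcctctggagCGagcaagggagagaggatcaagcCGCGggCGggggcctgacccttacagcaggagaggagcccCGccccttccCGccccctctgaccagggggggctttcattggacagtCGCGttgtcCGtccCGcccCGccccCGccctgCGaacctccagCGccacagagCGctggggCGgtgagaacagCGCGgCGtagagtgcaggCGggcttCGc
Fzd9, chr5:135250998-135251297, minus strand: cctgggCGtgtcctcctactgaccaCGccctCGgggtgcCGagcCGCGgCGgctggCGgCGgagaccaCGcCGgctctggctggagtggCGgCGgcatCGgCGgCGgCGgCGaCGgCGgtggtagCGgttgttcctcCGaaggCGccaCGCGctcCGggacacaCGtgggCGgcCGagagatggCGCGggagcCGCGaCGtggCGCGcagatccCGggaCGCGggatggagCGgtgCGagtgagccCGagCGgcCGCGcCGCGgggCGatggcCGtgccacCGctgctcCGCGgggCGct
They hold 31, 32 and 53 CG pairs, beside a median of 7 over all 32851 promoters and of 25 over the 47 promoters given for members. The promoter of Fzd7, also among the 6 genes but not shown, holds 24 CG pairs. The words CTTTGAT and CTTTGAA, forms of the site bound by Tcf7 and Lef1 proteins, were searched on both strands. These letters do not occur in the 3 windows, and they occur in promoters of 3 members (Wnt5b, Wnt11 and Dkk1) and in 8.65% of all promoters.

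In the earlier stage of OHC life the picture was less sharp. Between OHCs (P7) and SCs, 0 of the 34 genes passed with edgeR, beside 3.41% of all genes, with 3 higher and 8 lower at an unadjusted p under 0.05 (11.0% and 7.93% of all genes). DESeq2 called 11 of them and limma-voom 2 (Fzd2 and Tcf7, both lower). The median log2 fold change was -1.17, or -1.18 with Lgr6 at its bound, beside 0.00. Between OHCs (P7) and cHCs 0 genes passed with edgeR (0.343% of all genes), 2 were higher and 9 lower at an unadjusted p under 0.05 (4.36% and 6.80% of all genes), DESeq2 called 7 and limma-voom 1 (Ctnnb1). The shares of all genes called by DESeq2 and limma-voom are not given for these comparisons. Their counts therefore do not set the members apart from other genes.

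Between IHCs and OHCs (P22), at an adjusted p under 0.05, 3 genes were higher in IHCs (Axin2, Fzd4 and Fzd7) and 0 lower. This was 8.82% of the 34 beside 1.46% of all genes (0.977% higher and 0.485% lower). Axin2 and Fzd7, but not Fzd4, were lost without replicate 21 or 22. The same held with the title form as a batch term and with only the compared cell types fitted. Both IHC libraries lay above both OHC (P22) libraries for 14 of the 34 genes (24.1% of all genes). Against SCs, Fzd9 was the 1 gene that passed (2.94% beside 2.65% of all genes, 0.420% lower), and the median log2 fold change was -0.71 beside 0.00. The SC markers named above, at 819 and 655 CPM in IHCs against 7.93 and 4.97 CPM in OHCs (P22), moved in the same direction as these 3 genes. Their part in the difference was not tested. Fzd9, at 103 and 94.4 CPM in SCs, had no read in IHCs. The SC markers differed among themselves in IHCs: Gjb2 lay above both SC libraries and Lfng within their range. Sox2, Sox9, Prox1, Fgfr3, Hes1 and Jag1 lay below both.

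**Figure D5:**
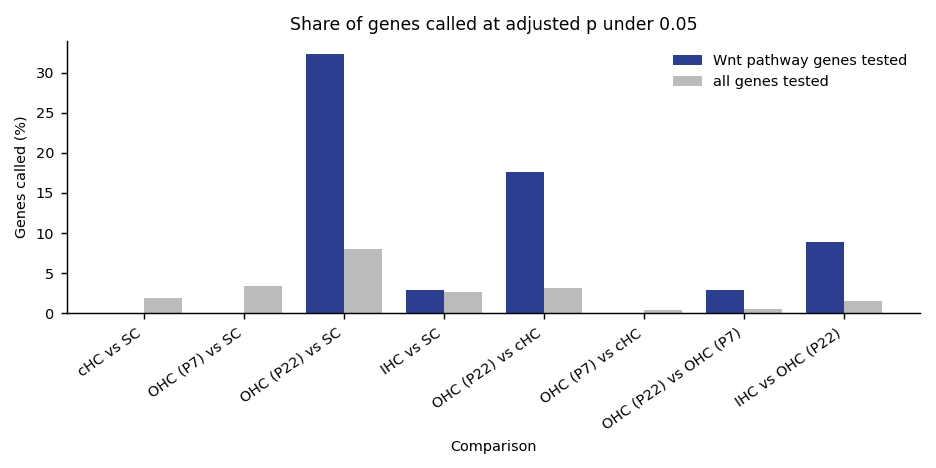
Share of the 34 tested Wnt pathway genes and of all 16891 genes with an adjusted p under 0.05 (edgeR) in 8 comparisons. The share of pathway genes was 32.4% against 8.02% for OHCs (P22) and SCs, and 17.6% against 3.18% for OHCs (P22) and cHCs; for cHCs and SCs it was 0 against 1.84%.

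The wider pathway was followed in a list of 47 other genes, planar polarity genes aside, and 38 of them were tested. Between OHCs (P22) and SCs, 3 were lower and 0 higher, beside 8.02% of all genes called: Wls, which carries Wnt proteins to the cell surface, Kremen1, a Dkk receptor, and Cd44, a known target. Wls had 127 and 143 CPM in SCs, 113 and 4.83 CPM in cHCs, 2.75 and 1.61 CPM in OHCs (P7), 0.264 and 0.0421 CPM in OHCs (P22) and 59.5 and 65.5 CPM in IHCs. It was lower than in SCs by -5.96 ± 1.41 on the log2 scale in OHCs (P7) (adjusted p = 0.0452) and by -9.93 ± 1.73 in OHCs (P22) (adjusted p = 0.00563). Cd44 had 39.1 and 50.4 CPM in SCs, 95.7 and 94.6 CPM in cHCs, 1.01 and 13.8 CPM in OHCs (P7), 0 and 0.0421 CPM in OHCs (P22), and 26.7 and 96.4 CPM in IHCs. Wls and Cd44 were also lower in OHCs (P22) than in cHCs and higher in IHCs than in OHCs (P22), and between cHCs and SCs 0 of the 38 passed with edgeR, beside 1.84% of all genes. Tle2, a corepressor, was lower in OHCs (P7) than in SCs (-7.41 ± 1.74 on the log2 scale, adjusted p = 0.0441). Of the 14 Dishevelled and destruction complex genes tested, 0 passed in any of the 8 comparisons with edgeR, and their summed level ran from 1439 to 1866 CPM over all libraries. Nkd1, a feedback inhibitor, passed the joint test (adjusted p = 0.0343), with 32.2 and 67.7 CPM in cHCs and 2.48 CPM or less in every other library.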

How the data were processed

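The deposited files hold raw counts of reads per gene for 10 libraries. The authors amplified RNA of hand-picked cells with Ovation RNA-Seq V2, sequenced it in pairs, trimmed it with Cutadapt, mapped it to mm9 with STAR and BWA and counted it with HTSeq. The file attached to 4 of the 10 records belonged to another library. Each library was identified by the constant ratio of the study's CPM column to the counts (coefficient of variation at most 0.000138% over genes, and at least 170.4% for any other library). Reads on no gene (31.5% to 61.8%) were left out. Genes were kept by edgeR's filterByExpr, and all 10 libraries entered 1 model in edgeR 4.0.16 (R 4.3.3), with TMM factors, quasi-likelihood F-tests (2-sided) and adjustment over 16891 genes. The SE is the fold change divided by the square root of F. Lengths and positions came from the mm9 GENCODE annotation. The test was tried on simulated counts. The members and gene lists were chosen with earlier results of these data known. Values are given for members called in a comparison, the 2 of each role with the highest mean CPM, and Lgr4 to Lgr6, Axin2, Lef1, Tcf7l2, Ctnnb1, Lrp5, Lrp6, Znrf3, Rnf43 and Wif1. Other members with values (such as Wnt4 or Fzd3) were chosen after these were seen. Alternatives were DESeq2 1.42.0 (without outlier handling), limma-voom 3.58.1, RLE scaling, other filters, fits of the compared cell types, the files as attached, leaving out each library and, chosen after the data were seen, the title form as a batch term.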

Additional observations from a re-analysis of the deposited data

How the results depend on the processing

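The cell types share no replicate numbers, and the main fit paired no libraries. Title form, shared by 1 library each of SCs, cHCs and OHCs (P7), was used as a batch term only in an alternative. Between SCs, cHCs and OHCs (P7), the differences between the 2 title forms had r from -0.02 to 0.04 over 16891 genes. Over the 34 members, which are not independent replicates, r ran from -0.17 to 0.21. Each difference comes from single libraries, whose spread alone can bring r near 0, so these values do not decide on an effect of title form. Over all alternatives, the 22 pairwise calls of single genes kept their direction wherever they could be fitted. Counts of called genes are given below in the order joint test, cHCs against SCs, OHCs (P7) against SCs, OHCs (P22) against SCs, IHCs against SCs, OHCs (P22) against cHCs, OHCs (P7) against cHCs, OHCs (P22) against OHCs (P7), and IHCs against OHCs (P22). The counts above were 4, 0, 0, 11, 1, 6, 0, 1 and 3. With DESeq2 they were 19, 2, 11, 18, 6, 15, 7, 11 and 11, and all genes called rose as well (24.6% for OHCs (P22) against SCs). Most shares of all genes under the alternatives are not given, so these counts do not set members apart from other genes. With limma-voom they were 11, 1, 2, 10, 5, 6, 1, 0 and 4, without a filter 20, 0, 7, 16, 3, 13, 1, 8 and 10, and with at least 10 counts in every library, where 6 members were left to test, 2, 0, 1, 2, 0, 2, 0, 1 and 0. Fits of the compared cell types alone gave 0, 2, 8, 1, 3, 0, 0 and 1 for the 8 pairs. With the title form as a batch term (0 for OHCs (P22) and IHCs; chosen after the data were seen) they were 3, 0, 0, 10, 1, 6, 0, 1 and 1. The calls lost were Fzd7 in the joint test, Fzd6 against SCs, Axin2 against cHCs, and Axin2 and Fzd7 in IHCs against OHCs (P22), and Wnt5a passed against cHCs. In fits of SCs, cHCs and OHCs (P7) only, 1 gene (Tcf7) passed between OHCs (P7) and SCs without this term and 0 with it, and 0 between the other pairs. With the files as attached to the records, every count was 0, as was that of all genes. There 15 members had an unadjusted p under 0.05 for OHCs (P22) against SCs, without a share of all genes to set beside them. RLE scaling changed no count, although Fzd6 lost its call. Leaving out each library in turn gave 4 to 10 in the joint test, 0 to 0 for cHCs against SCs, OHCs (P7) against SCs and OHCs (P7) against cHCs, 2 to 9 for OHCs (P22) against SCs, 1 to 1 for IHCs against SCs, 2 to 5 for OHCs (P22) against cHCs, 0 to 4 for OHCs (P22) against OHCs (P7), and 1 to 3 for IHCs against OHCs (P22). The joint count rose to 10 and 9 without OHC (P7) replicates 15 and 14 and to 7 without either IHC replicate, and for OHCs (P22) against OHCs (P7) it rose to 4 without replicate 15 and fell to 0 without replicate 21. Fits without a library assume that the lone library varies like the others. The cause of these changes was not tested.

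The difference of cHCs from SCs, which no member passed with edgeR, changed sign for some of the 11 genes named in OHCs (P22). With the files as attached, it was 0.38 for Axin2, 0.42 for Fzd2, -1.64 for Fzd4, 0.52 for Fzd6, 0.20 for Lgr5, 0.43 for Rnf43 and -0.27 for Wnt5a (log2), and for Lgr5 it was 0.04 with the title form as a batch term in the fit of SCs, cHCs and OHCs (P7) only. Leaving out each SC and cHC library in turn, it ran from -0.45 to 0.71 for Fzd4, -1.13 to 0.52 for Fzd6, -1.76 to 0.62 for Fzd7, -1.23 to 0.34 for Fzd9, -0.65 to 0.53 for Lgr5, -0.52 to 2.57 for Wnt5a, -2.94 to 0.62 for Wnt7a and -0.49 to 0.15 for Wnt7b. With 2 libraries a cell type and 3 counts at up to 0.264 CPM, lower levels could not be compared.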

Other observations

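Planar polarity genes, which share Fzd3 and Fzd6 with the Wnt pathway and orient hair bundles, were read from a list of 12, all of them tested. Celsr3, a large cadherin of this system, had 1.11 and 0.266 CPM in SCs, 103 and 166 CPM in cHCs, 26.4 and 25.2 CPM in OHCs (P7), 711 and 298 CPM in OHCs (P22) and 170 and 127 CPM in IHCs. All 8 hair cell and cHC libraries lay above the SCs. It was higher than in SCs in cHCs by 7.63 ± 0.91 on the log2 scale (adjusted p = 0.00119), in OHCs (P7) by 5.25 ± 0.82 (adjusted p = 0.00529), in OHCs (P22) by 9.54 ± 0.98 (adjusted p = 2.34e-04) and in IHCs by 7.78 ± 0.92 (adjusted p = 9.57e-04), all with edgeR. Of the 50 tested genes of the wider pathway and of planar polarity, it was the 1 that passed with edgeR between cHCs and SCs, beside 1.84% of all genes.

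Its relatives Celsr1 and Celsr2 had the opposite order in OHCs (P22). Celsr1 had 148 and 11.4 CPM in SCs, 115 and 96.2 CPM in cHCs, and 0.176 and 0.884 CPM in OHCs (P22), a fall of OHCs (P22) against cHCs of -7.56 ± 1.61 on the log2 scale (adjusted p = 0.0290). Celsr2 had 87.0 and 92.8 CPM in cHCs and 1.32 and 0.927 CPM in OHCs (P22), which differed by -6.32 ± 1.31 on the log2 scale (adjusted p = 0.0260). Intu, an effector of this system that acts at cilia, had 12.7 and 5.15 CPM in SCs, 40.9 and 28.3 CPM in cHCs, 114 and 118 CPM in OHCs (P7), 531 and 174 CPM in OHCs (P22) and 166 and 134 CPM in IHCs. The cell types from SCs to cHCs, OHCs (P7) and OHCs (P22) followed each other upwards without overlap. Its log2 fold change in OHCs (P22) was 5.31 ± 0.79 against SCs (adjusted p = 0.00229) and 3.35 ± 0.72 against cHCs (adjusted p = 0.0296). Fuz, another effector, was higher in OHCs (P22) than in cHCs (141 and 119 against 3.79 and 4.90 CPM, adjusted p = 0.0496).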
